A study of Papio anubis and Macaca fascicularis and Castor canadensis with 48 samples.

Results

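Liver gene expression of the sugar glider (Petaurus breviceps), a marsupial, was set against that of 7 placental mammals. Of the 48 libraries in the series, 21 are livers. The sugar glider gave 2 of them and the placental species gave 19, namely 6 from baboon (Papio anubis), 6 from long-tailed macaque (Macaca fascicularis), 2 each from beaver (Castor canadensis) and chipmunk (Tamias sibiricus), and 1 each from American black bear (Ursus americanus, called bear here), white-footed mouse (Peromyscus leucopus) and tube-nosed bat (Murina leucogaster). All animals were untreated wild-type males, described as adults or young adults. The sugar glider, chipmunk, bear, bat and white-footed mouse organs came from an earlier collection and the baboon, beaver and macaque organs from a primate research center, so collection and species cannot be told apart across that line.

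Marsupials and placental mammals are the main branches of living mammals that bear live young, and they separated early in mammalian history. The liver makes most proteins of blood plasma, assembles and clears lipoproteins, forms bile, stores glycogen and removes foreign compounds. Most of its mass is hepatocytes, and a bulk sample also holds cells of bile ducts, vessels, blood and resident macrophages. In such samples fewer cells of a type and less RNA per cell cannot be told apart. Genes are known here by mouse Ensembl ID alone, because the files do not pair the IDs with names. The hepatocyte markers, the markers of other cell types and the gene lists are written as symbols, so they could not be read, and the liver label could not be checked against them.

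Members were chosen gene by gene. A gene was called when sugar glider liver differed from the mean of the 7 placental species, each with equal weight on the log2 scale, at an adjusted p under 0.05 (edgeR quasi-likelihood test, Benjamini-Hochberg adjustment). It was kept when the fitted log2 fold change also had the same sign against each of the 7 species. Of 16816 genes in the table, 14371 had enough counts to be tested and 3912 (27.2%) were kept. The direction against each species is therefore a condition of membership and not a finding. At the threshold on p, the last kept gene had an adjusted p of 0.0495 (edgeR), and the next gene with a shared sign had 0.0501.

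The sugar glider libraries held 12.4 and 12.01 M counts (M, mega), and the placental livers 8.64 to 26.8 M with a median of 23.0 M. Levels are given as TMM-scaled CPM, which are counts relative to the total of a library (CPM) after a scaling that lines up the bulk of genes between libraries. The TMM factor was 1.35 and 1.31 in the sugar gliders and 0.486 to 1.59 in the placental livers. The white-footed mouse library had the lowest factor and the largest share of counts in its 10 most counted genes (45.5%), while that share was 16.8% and 15.9% in the sugar gliders. The bat library was the shallowest and had the highest factor. No pair of livers within a species agreed within sampling noise. The median absolute log2 difference between the sugar gliders was 0.28, within the 0.19 to 0.38 of primate pairs of 1 species. The labels number the replicates without saying that they are separate animals, so p-values measure the spread between these samples, which may be technical. A species with 1 library was assumed to vary like the others.

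Sugar glider liver differed from the placental mean in 7298 genes (50.8% of those tested). In 4120 (28.7%) it was higher and in 3178 (22.1%) lower. Of these, 2028 (14.1%) were kept as higher and 1884 (13.1%) as lower. In 1349 of the higher (9.39% of those tested) and 1279 of the lower genes (8.9%), both sugar glider values lay beyond all 19 placental values. Without the white-footed mouse library, 14301 genes were tested, 3809 were called higher (26.6%) and 3653 lower (25.5%). The kept genes then numbered 2356 (16.5%) and 2627 (18.4%), so that the larger side changed from higher to lower. With all 21 livers it also changed under other scalings. DESeq2's size factors gave 1879 higher and 1981 lower, and upper-quartile scaling 1856 and 1997. Limma voom, another test with the TMM factors kept, gave 1976 and 2043. Which side is larger is thus not settled. With 1 species fewer, the condition on sign is also easier to meet.

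The same fit was read with every other species in the place of the sugar glider. The sugar glider's 27.2% of genes kept compared with 14.6% for baboon, 10.4% for macaque, 16.9% for beaver, 15.2% for chipmunk and 14.8% for bear. It was 25.3% for the bat and 42% for the white-footed mouse, each with 1 library. The sugar glider thus stood above 5 of the 7 placental species, near the bat and below the white-footed mouse. On the lower side alone, 13.1% of genes were kept in the sugar glider, 10.8% in the bat and 23.1% in the white-footed mouse. In the other 5 species this share was 2.89% (macaque), 4.78% (baboon), 5.08% (bear), 5.57% (chipmunk) and 5.85% (beaver). On the higher side, of the same 14371 genes, 2028 were kept in the sugar glider, 2079 in the bat and 2719 in the white-footed mouse. The other 5 species had 1586 (beaver), 1406 (baboon), 1390 (bear), 1388 (chipmunk) and 1074 (macaque). These comparisons share all their libraries. Baboon and macaque are close relatives, and each is among the species that the other had to differ from.

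**Figure D1:**
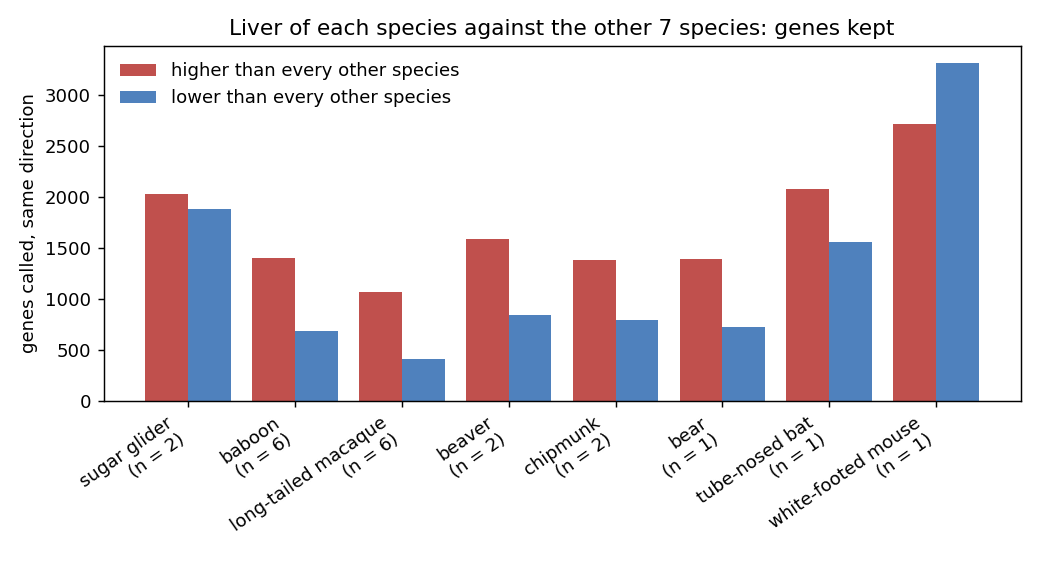
Bars give the number of genes kept as higher (red) or lower (blue) in the liver of each species against the other 7 species, with the number of libraries under each name. The sugar glider has 2028 and 1884 genes. Only the white-footed mouse has a taller blue bar, while the white-footed mouse and the bat have taller red bars.

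Against single species, all fitted with the same 2 sugar glider libraries, the number of genes that differed in either direction was 8752 for baboon (60.9% of those tested), 8569 for macaque (59.6%), 7946 for white-footed mouse (55.3%), 7318 for beaver (50.9%), 7158 for bat (49.8%), 6942 for chipmunk (48.3%) and 6154 for bear (42.8%). The primates have 6 libraries each and the bear has 1, and the number of libraries sets how small a difference each test can call. The placental species closest to the sugar glider varied from gene to gene. For kept higher genes it was chipmunk in 17.2%, beaver in 16.3%, bat in 16%, bear in 13.9%, baboon in 12.6%, white-footed mouse in 12.4% and macaque in 11.6%. For kept lower genes it was white-footed mouse in 17.8%, beaver and chipmunk in 17.3% each, and macaque in 7.64%.

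Over all kept genes, the nearest placental species was at least 2-fold away in 660 of 2028 higher (32.5%) and 1033 of 1884 lower genes (54.8%), and at least 16-fold away in 81 (3.99%) and 399 (21.2%). These counts include genes with no count on 1 side, whose fitted folds have no fixed size. Among kept genes with a count in all 21 livers, the median fitted log2 fold change against the placental mean was 1.57 for 1528 higher genes and -1.96 for 1306 lower genes, and it was 0.06 over all 9395 such genes tested. Among these genes the nearest placental species was at least 2-fold away in 346 of the higher (22.6%) and 482 of the lower genes (36.9%). The share over all 9395 was 10.3%. It was at least 4-fold away in 73 (4.78%) and 177 (13.6%), against 2.75% of all. At least 16-fold away were 7 (0.458%) and 23 (1.76%), against 0.319% of all. The far end of the range was thus held mainly by lower genes. The largest log2 distance to the nearest species was 5.52 on the higher side and 9.50 on the lower side.

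**Figure D2:**
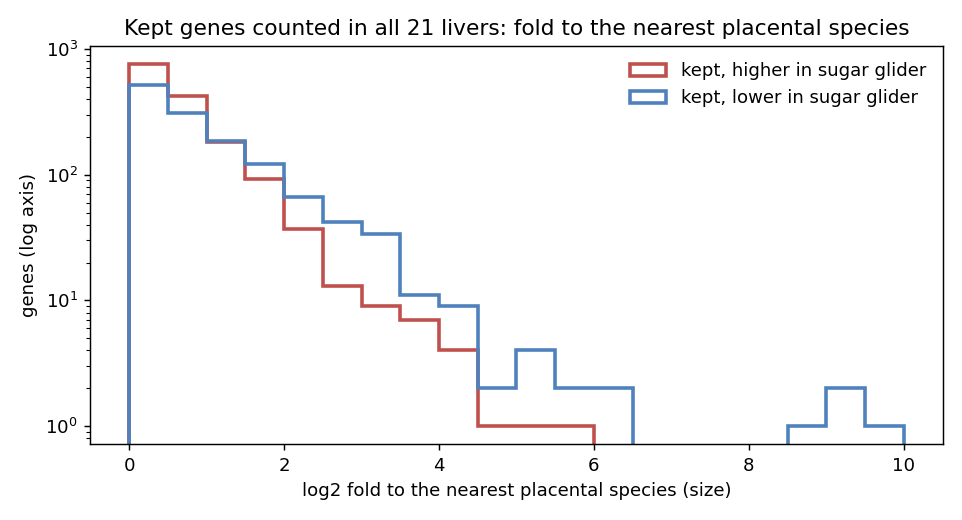
Numbers of kept genes (log axis) are plotted by the size of the fitted log2 fold to the nearest placental species, for the 1528 higher (red) and 1306 lower (blue) genes with a count in all 21 livers. The higher genes end at 5.52 and the lower genes at 9.50.

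Genes to print were taken in order of the fold to the nearest species, among kept genes with no overlap between libraries, a count in all 21 livers and a mean of at least 20 TMM-scaled CPM on the higher side. This pool held 825 higher and 411 lower genes. Its first 12 higher genes were at least 3.62 log2 units above the nearest species and its first 12 lower genes at least 4.44 units below. The first 2 of each are described with their values.

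ENSMUSG00000074785 stood at 1026 and 585 TMM-scaled CPM in the sugar glider livers. Baboon livers held a lowest value of 9.22, a median of 17.7 and a highest value of 24.2, and macaque livers 1.43, 11.3 and 20.2. The beaver livers had 1.15 and 1.46, the chipmunk livers 3.96 and 4.61, the bear 2.58, the bat 5.02 and the white-footed mouse 0.321. Baboon and macaque thus had the highest placental species means, although 2 macaque livers lay under the bat, and every placental value lay far under the lower sugar glider. The log2 fold change against the placental mean was 7.93 (SE 0.54, edgeR adjusted p = 2.11e-09), and against baboon, the nearest species, it was 5.52.

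ENSMUSG00000026879 was among the most counted sugar glider genes, at 4891 and 6305 TMM-scaled CPM. White-footed mouse came closest with 147, followed by the beavers with 124 and 71.7, the bat with 68.7 and the bear with 41.0. Chipmunk livers had 13.02 and 21.7. Baboon livers ranged from 10.5 through a median of 13.6 to 24.1, and macaque livers from 9.18 through 12.8 to 23.6. Here the primates and the chipmunk were the lowest. The log2 fold change was 7.15 (SE 0.30, edgeR adjusted p = 1.01e-11) and the distance to the nearest species, white-footed mouse, was 5.25.

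ENSMUSG00000031722 was abundant in every placental liver, while the sugar glider livers held 23.4 and 0.127 TMM-scaled CPM. Baboon livers had a lowest value of 13166, a median of 24564 and a highest value of 30966, and macaque livers 4766, 8525 and 13110. The beavers had 14272 and 13261, the chipmunks 8031 and 23527, the bear 31244, the bat 8541 and the white-footed mouse 17917. The placental livers spread over less than an order of magnitude, while the sugar gliders were 184-fold apart. The fitted log2 fold change was -10.36 (SE 1.39, edgeR adjusted p = 6.88e-06). It was -16.82 without the first sugar glider library and -9.36 without the second, so 1 library decides its size. Both sugar gliders lay below all 19 placental livers.

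ENSMUSG00000002985 had 3.59 and 0.764 TMM-scaled CPM in the sugar gliders. Its placental levels ran from 1153 and 1495 in the beavers to 100665 in the white-footed mouse, where it was a large part of the library. Baboon livers held 5640, 6799 and 7929 (lowest, median, highest) and macaque livers 2224, 2799 and 3541. The chipmunks had 5670 and 6122, the bear 5672 and the bat 18275. The log2 fold change was -11.78 (SE 0.63, edgeR adjusted p = 1.32e-10), and against beaver, the nearest species, the distance was 9.24. The log2 fold change was -13.28 without the first sugar glider library, -11.06 without the second and -11.17 without the white-footed mouse, so its size also rests on single libraries. The placental species thus differed widely among themselves, and the sugar gliders lay below all of them.

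**Figure D3:**
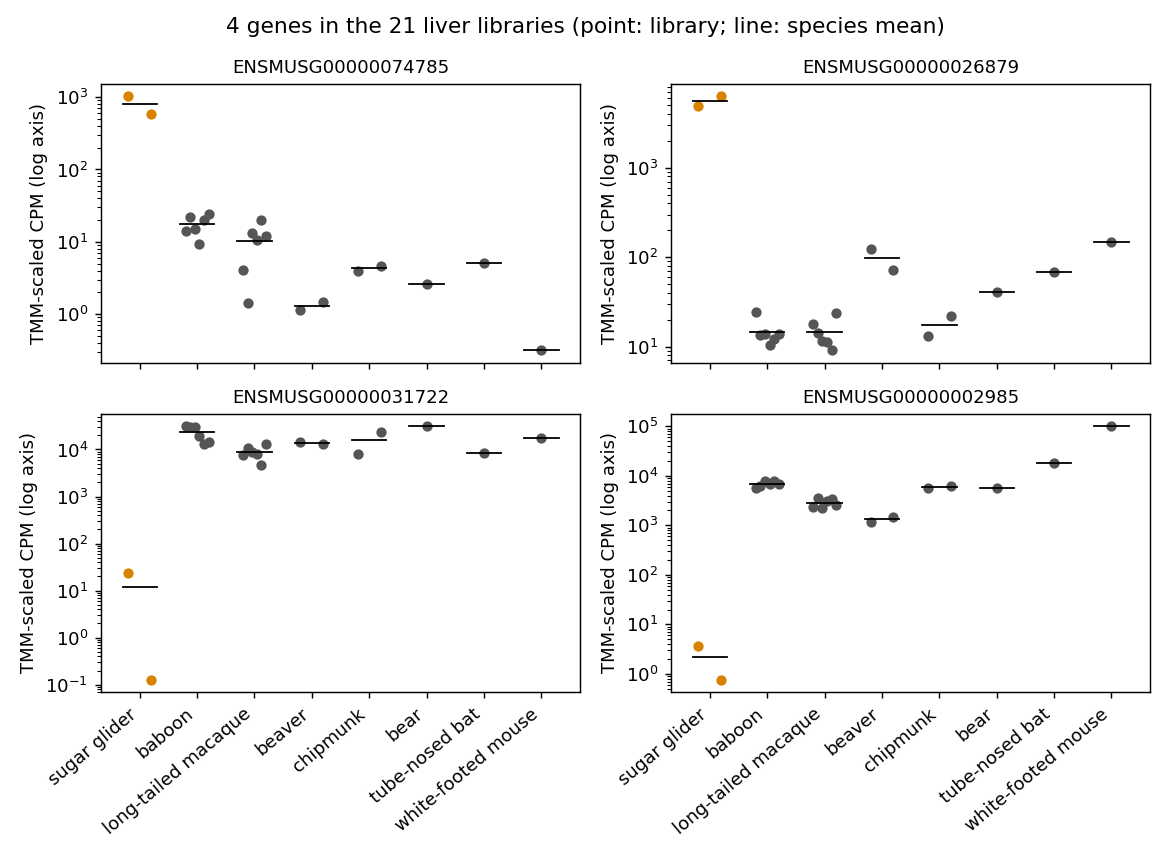
TMM-scaled CPM (log axis) of the 4 genes in each of the 21 livers, with sugar gliders in orange, placental livers in grey and a line at each species mean. In the upper panels both sugar gliders lie above all 19 placental livers (585 against at most 24.2, and 4891 against at most 147), and in the lower panels under all of them (at most 23.4 against at least 4766, and at most 3.59 against at least 1153).

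The contrast was repeated within the sugar glider's own collection, with 2 sugar glider, 2 chipmunk, 1 bear, 1 bat and 1 white-footed mouse livers. Of 13178 genes tested, 6910 (52.4%) were called, 3935 (29.9%) as higher and 2975 (22.6%) as lower, and 2475 (18.8%) were kept as higher and 2108 (16%) as lower. This fit uses libraries of the main one and only 4 placental species, so its sign condition is easier to meet. The log2 fold change of ENSMUSG00000074785 there was 8.60 (SE 0.33) at an edgeR adjusted p of 6.73e-05. That of ENSMUSG00000026879 was smaller than in the main fit, at 6.75 (edgeR adjusted p = 6.955e-05). ENSMUSG00000002985 had -12.81 (SE 0.99, adjusted p = 0.000176) and ENSMUSG00000031722 had -10.46 (SE 2.05, adjusted p = 0.00583), both in the same edgeR fit. These were the largest adjusted p values that the 4 genes had in any alternative run. These genes were chosen in the main fit, which holds all libraries of this fit, so the values describe these libraries and are no independent check.

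The lower genes divided by how many counts the sugar gliders had. Of the 1884 kept lower genes, 395 had no count in either sugar glider liver (21%, against 13.9% of all genes tested). Another 464 had some counts but under 10 in at least 1 liver (24.6%, against 15.8%), and 1025 had at least 10 in both (54.4%, against 70.2%). Of the 2028 kept higher genes, 463 had no count in at least 1 placental species (22.8%, against 28.2% of all genes tested). A count in every liver was found for 1528 (75.3%, against 65.4%). A gene can pass the filter on low counts through a single species: 132 tested genes passed only through the sugar gliders, and 112 of these were kept as higher. The sources used here do not give the way in which a read of each species was placed on a mouse ID. For a gene with no count, a missing or diverged gene model and absent RNA cannot be told apart. The same limit holds for genes at low levels on 1 side, among them ENSMUSG00000031722 and ENSMUSG00000002985 in the sugar gliders. For any gene, a species difference in RNA level and one in how reads were assigned cannot be told apart here.

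Between the sugar glider livers, 131 of the 2028 kept higher genes (6.46%) were over 2-fold apart, against 33 of the 1884 kept lower genes (1.75%) and 511 of all 14371 tested (3.56%). These values were computed after adding 1 to each TMM-scaled CPM, which draws low levels together. The median sugar glider level of kept lower genes was 1.16 TMM-scaled CPM and that of kept higher genes 32.5.

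Sugar glider liver lacked counts for more genes than 6 of the 7 placental species. In all, 4150 of the 16816 genes (24.7%) had no count in either sugar glider, against 2066 in baboon, 2127 in macaque, 3198 in chipmunk, 3434 in beaver, 3768 in bat, 3845 in bear and 5078 in white-footed mouse. The summed depth was 24.4 M counts for the sugar glider, 152 M for baboon and 8.64 M for the bat, which lacked counts for fewer genes at a lower depth. Of the 4150 genes, 1024 had no count in any placental liver either, and 406 had counts in all 7 placental species. With a mean of at least 1 CPM, here without TMM scaling, asked in each of the other 7 species, 116 genes lacked a count in the sugar glider. This number was 1 to 19 when baboon, macaque, beaver, chipmunk, bear or bat took its place and 199 for white-footed mouse. With at least 20 CPM asked, again without TMM scaling, it was 14 for the sugar glider and 0 to 4 for each placental species.

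**Figure D4:**
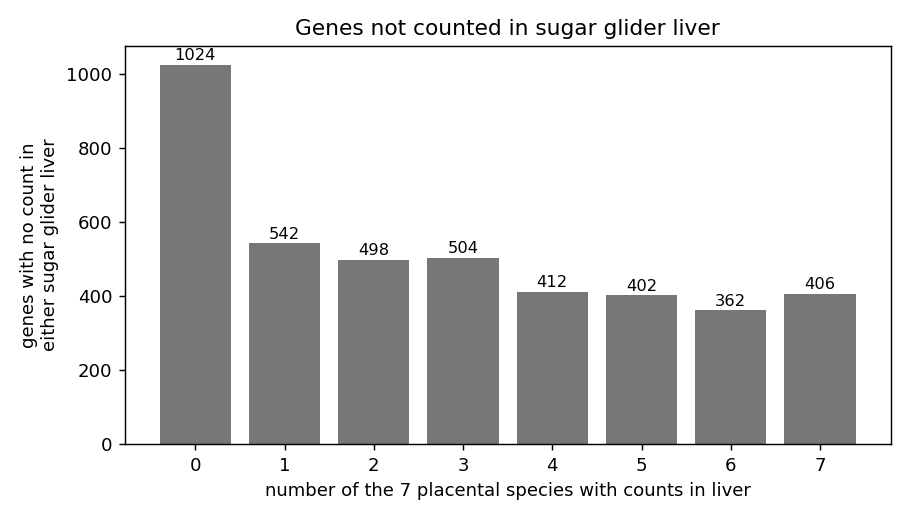
Bars give the 4150 genes with no count in either sugar glider liver by the number of placental species, 0 to 7, that had counts for them. The bar at 0 holds 1024 genes and the bar at 7 holds 406.

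Among genes with no sugar glider count, ENSMUSG00000022347 had the highest level in its lowest placental species. Baboon livers ranged from 406 through a median of 648 to 1025 TMM-scaled CPM and macaque livers from 572 through 710 to 1040. The beavers had 1181 and 721, the chipmunks 747 and 2089, the bear 1220, the bat 1517 and the white-footed mouse 3302. The gene was thus well counted in all 19 placental livers. Against a floor of 3 read pairs over both sugar gliders (6 counts, or 0.185 TMM-scaled CPM), it was at least 3811-fold lower than in baboon, the lowest species by mean. The next such gene, ENSMUSG00000029656, had 342 and 249 in beavers, 409 and 397 in chipmunks, 960 in the bear, 393 in the bat and 600 in the white-footed mouse. Its baboon livers ranged from 547 through 769 to 1137 and its macaque livers from 614 through 956 to 1328. It was at least 1596-fold lower in the sugar gliders than in beaver, its lowest species.

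In the other direction, 62 genes had a count in the sugar glider livers and none in the 19 placental livers. Of these genes, 6 had a mean of at least 1 CPM without TMM scaling. Genes counted in 1 species alone numbered 42 to 135 when each placental species took its place. ENSMUSG00000079180 had 4173 and 2502 TMM-scaled CPM in the sugar gliders and 0 in every placental liver. Against 3 read pairs over the pooled depth of all placental livers it was at least 226231-fold higher. Baboon and macaque livers hold most of that depth (152 and 145 M counts), so the bound against any single species is lower. ENSMUSG00000000739 had 70.1 and 104 in the sugar gliders, 0.321 in the white-footed mouse and 0 in the other 18 placental livers. The white-footed mouse value is 1 read pair, and the ratio to that library was 271 (exact 95% Poisson interval 48.6 to 10690). Over the pooled depth of all 19 placental livers the ratio was 17670 (3172 to 698100). No p is given for genes counted on 1 side alone, since they entered the test through the side where they are high. The interval and the floors cover counting error only.

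Kept genes were found at every level of expression. Over the mean of the 8 species, 9.3% of genes under 1 TMM-scaled CPM were kept as higher and 3.14% as lower. From 1 to 10 the shares were 13.3% and 17.5%, from 10 to 100 they were 16.9% and 14.3%, and above 100 they were 13.7% and 11.8%. Only in the range from 1 to 10 did lower genes outnumber higher ones, with 802 against 608. The mean includes the sugar glider. Of all kept genes, 112 higher and 0 lower ones passed the filter on low counts only through the sugar gliders. The split at low levels can thus reflect the filter, and nothing is read from it.

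Kidney, brain and cerebellum libraries of the placental species were not part of the contrast. Among genes with a mean of at least 1 TMM-scaled CPM over the 8 livers, 10402 were at 1 CPM or more in each of baboon kidney, baboon brain, macaque kidney and macaque cerebellum. Of these, 15.6% were kept as higher and 15.3% as lower in sugar glider liver. A further 321 genes were under 1 CPM in all 4 organs, and 13.1% and 11.5% of them were kept. Across all genes at or above that liver level, 15.2% were kept as higher and 15.3% as lower. Broadly expressed genes thus made up most of the kept genes, at a share near that of all genes.

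Liver-enriched genes were defined without any of the livers compared. They are the 825 genes called as higher in baboon liver by at least 2 log2 units, over baboon kidney and again over baboon brain. The baboon livers were then left out, and sugar glider liver was set against the other 6 placental species. These 6 include macaque, a close relative of baboon. Choosing genes high in baboon liver can thus favour the lower side in the sugar glider. Of the 815 liver-enriched genes tested, 249 (30.6%) were lower in the sugar glider, against 21.4% of all 14197 genes tested, and 187 (22.9%) were higher, against 27.3% of all. Without the white-footed mouse library too, 269 of the 815 were lower (33%, against 23.7% of all genes) and 166 higher (20.4%, against 25.9%). The kept lower genes were 174 of the 815 (21.3%, against 13.5% of all genes tested), and the kept higher genes 79 (9.69%, against 14.3%). Of the 825 genes, 147 (17.8%, against 24.7% of all genes in the table) had no count in either sugar glider liver. The other 6 species ranged from 3 genes in macaque (0.364%, against 12.6%) to 107 in white-footed mouse (13%, against 30.2%).

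Read the same way, the bat had 198 liver-enriched genes lower (24.3%, against 15.7% of all genes) and 157 higher (19.3%, against 25.2%). White-footed mouse had 188 lower (23.1%, against 25.8%) and 235 higher (28.8%, against 26.1%). The shares lower were 14.7% in beaver (14.2% of all genes), 9.82% in chipmunk (13.1%), 7.73% in bear (8.78%) and 7.12% in macaque (16.8%), the relative of the baboon in which these genes were defined. The shares higher were 35% in beaver (28.6% of all genes), 33.6% in chipmunk (27.1%), 31.9% in bear (19.6%) and 64% in macaque (38.7%). The sugar glider and the bat were thus the species in which more liver-enriched genes were lower than higher. Over the 532 such genes with a count in all of these livers, the median log2 fold change was -0.14 in the sugar glider (0.06 over all such genes tested) and -0.48 in the bat (-0.04). It was -0.26 in the white-footed mouse (-0.25). In the other 4 species it was 0.32 to 0.76. The comparisons share their libraries, and the difference between species was not tested. Genes chosen in baboon can favour the higher side in macaque and the lower side in the other species.

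**Figure D5:**
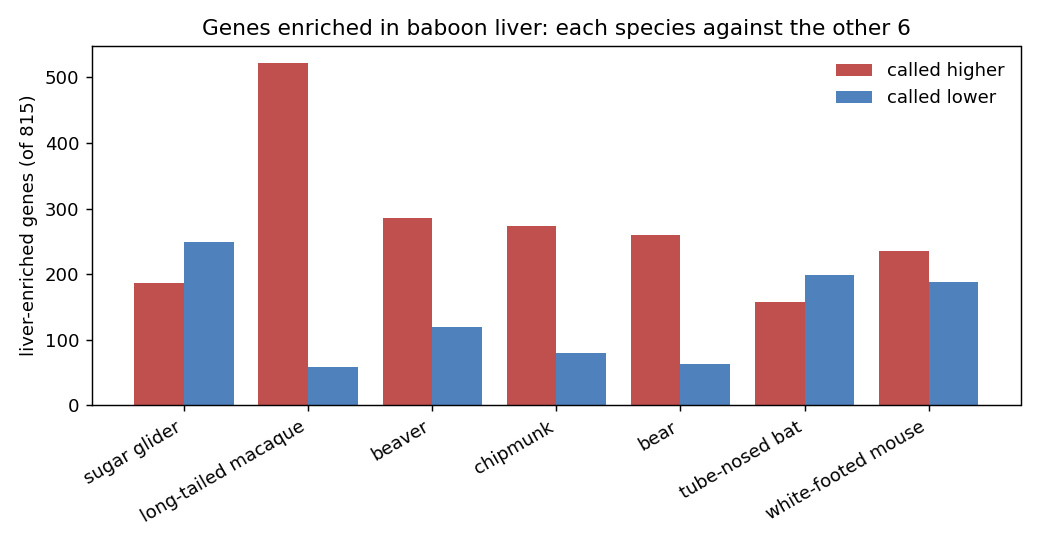
Bars give how many of 815 genes enriched in baboon liver were called higher (red) or lower (blue) in the liver of each species against the other 6, with baboon livers left out. The sugar glider has 187 higher and 249 lower, the bat 157 and 198, and the other 5 species more higher than lower.

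The most counted liver genes of the sugar glider were shared in part with each placental species. Counts are not scaled to gene length here, so this describes where the reads of a library went. The 100 most counted genes held 42.2% of sugar glider counts, between the 37.8% of the bat and the 68.4% of the white-footed mouse. They had 58 genes in common with the 100 of baboon, 58 with macaque, 58 with bear, 57 with chipmunk, 49 with beaver, 42 with white-footed mouse and 39 with bat. For 23 of them, no placental species had the gene among its own 100. Of 22 genes found among the 100 of all 7 placental species, 18 were also among the sugar glider's 100. Of these 22 genes 8 were kept as lower and 2 as higher, against 11.8% and 13.7% of all genes above 100 TMM-scaled CPM, and 3 were under 20 CPM in the sugar glider. The 22 genes were chosen for high counts in the placental livers, which favours the lower side, so nothing is read from this split.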

How the data were processed

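Bulk RNA sequencing of liver was analysed in 21 of 48 libraries. The values, deposited by the authors in a single table, are raw counts per mouse Ensembl gene ID with no normalization. STAR and featureCounts are named in the submitters' processing notes, while the sources used here give neither versions, nor genome builds, nor the assignment of reads to mouse IDs. Per the labels' protocols, RNA came from frozen organs by a column kit. Per library, 94.3% to 99.4% of the low deposited counts (1 to 20) were even numbers, so 2 counts were taken as 1 read pair for floors and intervals. All 48 columns matched a sample (0 unmatched).

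Counts were fitted in edgeR 4.0.16 (R 4.3.3) with TMM factors, filterByExpr by species, 1 coefficient per species and the two-sided quasi-likelihood F test. P-values were adjusted over all genes tested by the Benjamini-Hochberg method, and SEs were taken from the F statistic. The procedure was run on simulated data with 200 changed genes and a single mean profile shared by all species. The livers differ in far more genes, so the simulation does not give error rates for them. Alternatives used DESeq2 1.42.0 and limma 3.58.1, other scalings, filters and weights, 1 replicate or species left out, and a replicate block.

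The members and lists were chosen with earlier results of these data known. The rule for named genes takes the 12 higher and 12 lower kept genes with the largest fold to the nearest species, plus genes counted on 1 side alone; 2 per direction are printed for levels and 2 for detection. The reference table pairs 0 of the IDs with a symbol, so the 47 gene lists and the cell type markers could not be used, and genes sharing reads with paralogs, overlapping genes or antisense partners could not be recognised. No sequence is printed.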

Additional observations from a re-analysis of the deposited data

Results flagged for a closer look

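A single value stood apart from the rest of its group. For ENSMUSG00000026879, a gene kept as higher in sugar glider liver, baboon liver 1 had 24.12 TMM-scaled CPM and the next highest baboon liver 13.86. This gap was 0.753 of the range of the 6 baboon livers, above Dixon's 95% critical value for a group of this size. The measure was read in the baboon and the macaque livers of each printed gene whose values varied. Chance flags about 1 in 20 groups by this measure, so a single flag among these groups is not unusual. The sugar gliders had 4891 and 6305, above all baboon livers.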

How the results depend on the processing

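The main counts were 4120 genes called higher and 3178 lower, 2028 and 1884 kept, and 1349 and 1279 kept with no overlap between libraries. With genes limited to the 7498 that had at least 10 counts in every liver, 2449 were called higher and 2256 lower. Of these, 1150 and 1089 were kept, and 755 and 744 did not overlap. Fewer genes were tested, and 15.3% and 14.5% of them were kept. Within the sugar glider's own collection, 2028 higher and 1809 lower genes did not overlap, of 13178 tested. The next 2 settings, which leave out species, were added after seeing the data, and with fewer species the condition on sign is easier to meet. Leaving out white-footed mouse and bat together gave 2738 kept higher (19.4% of 14101 tested) and 3094 kept lower genes (21.9%). Of these, 1887 and 2084 did not overlap. With only the 4 placental species that have replicates, 2941 of 13559 genes tested were kept as higher (21.7%) and 3628 as lower (26.8%). Of these, 2054 higher and 2423 lower genes did not overlap. Leaving out 1 library gave 3280 to 4084 genes called higher and 2473 to 3653 lower, 1843 to 2356 and 1720 to 2627 kept, and 1343 to 1678 and 1312 to 1767 without overlap. No baboon or macaque library was left out singly. Genes called higher were 56.5% of all calls in the main fit, 47.2% with DESeq2's Wald test and 47.3% with the 4 replicated species, so the larger side changed. The median log2 fold change over all genes tested was -0.10 with TMM, -0.15 with DESeq2's size factors and -0.18 with upper-quartile scaling. Every fold change of a printed gene kept its direction and its side of the threshold in the alternatives in which the gene was tested. The printed genes were chosen for large folds or for counts on 1 side alone. Each alternative shares libraries with the main fit, so this outcome is no check of these genes.

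A replicate block, with the replicate number in the model, gave 3943 genes called higher and 3079 lower, 1972 and 1850 kept, and 1340 and 1278 without overlap. The labels share only numbers between species. Deviations of same-numbered libraries from their species means correlated between -0.0974 and 0.08 over 24 pairs, none over 0.1. Where both species have 2 libraries, the 2 pairs give the same value, so the 24 are not all separate. Of 12 primate livers, 1 correlated best with its own number. The block changed no call of a printed gene, which is likewise no check of these genes.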
